A study of Homo sapiens with 12 samples.

Results

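The comparison was between the RNA sites of IGF2BP3 in a second set of PAR-CLIP libraries, labelled bio2, and those of METTL1 and WDR4, the 2 partners of the complex that writes internal N7-methylguanosine (m7G). The 2 libraries of second-batch IGF2BP3 were set against 2 libraries of METTL1 and 2 of WDR4, 6 of the 12 libraries of the series. All were made from wild-type HepG2 cells, a human liver cancer line with epithelial-like morphology, after labelling of RNA with 4-thiouridine and digestion with RNase T1. No library carried a knockout or another treatment, and no input or mock library was analysed here, so the 4 writer libraries serve as the other side of the comparison and not as a background. The labels number the replicates but do not say that they were separate cultures, and p-values therefore measure the spread between these libraries only. The batch and what else was particular to the bio2 libraries cannot be told apart.

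A member was a site found in at least 2 libraries of one side, after clusters on the same strand that overlapped by 1 nt or more were merged, and lying in coding sequence, a small RNA gene or a 3' UTR. IGF2BP3 had 2594 such sites of its 4290 sites of all classes, and METTL1-WDR4 had 1639 of 4561. A site that overlapped a site of the other side on the same strand was counted as held by both sides, and any other site as held by one side alone, with or without a cluster of the other side that was itself no site. Each deposited file lists the intervals of clusters called in one library, with no read count, so the depth behind a single cluster was unknown and the lack of a cluster at a position gives no bound on the binding there. The 2 bio2 libraries held 6457 and 6009 clusters, the METTL1 libraries 6615 and 8648, and the WDR4 libraries 9765 and 9205, of 102250 clusters in the series.

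IGF2BP3 belongs to a family of RNA-binding proteins with RRM and KH domains, is mostly known from fetal tissue and tumours, and binds mRNA, often at CAU-containing sequence. METTL1 is the catalytic methyltransferase and WDR4 its structural partner, and together they place m7G in the variable loop of a group of tRNAs and inside some mRNAs and microRNA precursors. PAR-CLIP crosslinks a protein to labelled uridines and calls clusters where the sequenced cDNA carries the resulting T-to-C changes, so that a cluster marks contact with RNA and not the modification itself.

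The sites below show how coding sequences and 3' UTRs looked on each side. They were taken as the sites in the most libraries whose ends varied least between them, and whose central 20 nt was not repeated elsewhere in hg38. The sequences are the central 30 nt or the whole site where it was shorter, from the hg38 genome, 5′ to 3′ on the strand of the transcript, with T for U. Capitals mark CAT followed by A, C or T. The sites that this choice gave for each side alone are printed, for coding sequence and for 3' UTRs. EXOSC10 encodes a catalytic subunit of the nuclear RNA exosome, MTOR a growth-regulating kinase, SLC25A33 a mitochondrial pyrimidine nucleotide carrier and PLA2G2A a secreted phospholipase A2. Their sites and that of KIAA2013 were called in both bio2 libraries and in none of METTL1 or WDR4.
EXOSC10 coding sequence, chr1:11091044-11091073, minus strand: acacacCATTtcttcctaaaatcttCATCa
MTOR coding sequence, chr1:11228788-11228811, minus strand: tcactctctCATCATCacaccatg
SLC25A33 3' UTR, chr1:9585059-9585088, plus strand: caaCATCctcctatatcCATAttaaaacct
KIAA2013 3' UTR, chr1:11920021-11920050, minus strand: ctcactccttccactttccccctttcttct
PLA2G2A 3' UTR, chr1:19975496-19975525, minus strand: cttctactgctctcctccacctcaactccg

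The next sites were called in all 6 libraries. PHLDA1 encodes a pleckstrin homology-like domain protein, NT5C3B a cytosolic nucleotidase that acts on 7-methylguanosine monophosphate, and KHDRBS1 the RNA-binding protein Sam68.
PHLDA1 coding sequence, chr12:76030653-76030682, minus strand: ccaCATCcaCATCcacactctCATCctcac
NT5C3B coding sequence, chr17:41828899-41828928, minus strand: cacactctacCATAacaaCATTcccctttt
KHDRBS1 3' UTR, chr1:32042752-32042781, plus strand: cttcttctccccaccttattcCATTcttaa

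The following sites were called in all 4 METTL1 and WDR4 libraries and in neither bio2 library. SEC61A2 encodes a subunit of the protein-conducting channel of the endoplasmic reticulum, PCBP2 a poly(C)-binding protein, NGRN a mitochondrial protein, UBQLN4 a ubiquilin, RFX5 a transcription factor of MHC class II genes and DCAF8 a substrate receptor of a cullin ubiquitin ligase.
SEC61A2 coding sequence, chr10:12157973-12158002, plus strand: caaactcttctacacctccaaCATCcccat
NGRN coding sequence, chr15:90271366-90271395, plus strand: cacctccggggctctggaaatacctcaaag
PCBP2 coding sequence, chr12:53474943-53474972, plus strand: aaccctccaccccttcttcttcttcctcct
RFX5 3' UTR, chr1:151341116-151341145, minus strand: ttctCATTcctgcttccctctcaccctatt
UBQLN4 3' UTR, chr1:156036957-156036986, minus strand: ctctcctaatccctcggcccatgcctcctg
DCAF8 3' UTR, chr1:160217008-160217037, minus strand: cccacactcttcactttcctttccacctta
In the 3' UTR examples 1 of 3 sites of IGF2BP3 alone and 1 of 3 sites of the writers alone hold the element. The motif counts over all sites are given further on.

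Small RNA sites are shown for what each side contacted there. SNORD38B is a box C/D snoRNA and TRR-TCT1-1 an arginine tRNA gene, both called with IGF2BP3 alone. RPPH1, the RNA of RNase P, was called in all 6 libraries. TRA-CGC3-1, an alanine tRNA gene, was called in all 4 writer libraries alone.
SNORD38B, chr1:44778390-44778409, plus strand: tctcagtgatgaaaactttg
TRR-TCT1-1, chr1:93847573-93847589, plus strand: ggctccgtggcgcaatg
RPPH1, chr14:20343077-20343106, minus strand: tCATAacccaattcagactactctcctccg
TRA-CGC3-1, chr2:156400823-156400846, plus strand: caatccccggCATCtccaaatcag

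Some mature microRNAs under writer sites are printed from RefSeq (GRCh38.p14), with the seed, bases 2 to 8, in capitals. They are printed because the writer sites over them matched them closely, which not all writer sites on microRNA genes did.
hsa-miR-155-5p: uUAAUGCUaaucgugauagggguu
hsa-miR-423-5p: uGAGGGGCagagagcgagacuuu
hsa-miR-423-3p: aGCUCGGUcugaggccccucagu
hsa-miR-744-5p: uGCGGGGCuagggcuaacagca

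Most sites were held by one side alone. In coding sequence, 69 of 863 IGF2BP3 sites (8.0%, 95% Wilson interval 6.37 to 10.0) overlapped a METTL1-WDR4 site, in 3' UTRs 222 of 1578 (14.1%, 12.4 to 15.9), and in small RNAs 22 of 153 (14.4%, 9.69 to 20.8). Over all classes the share was 19.0%, 816 of 4290 sites, and 114 of the 116 mitochondrial sites were held by both sides. Intervals cover counting error only.

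Seen from the writer side, 68 of 297 coding sites (22.9%, 18.5 to 28), 221 of 1271 sites in 3' UTRs (17.4%, 15.4 to 19.6) and 23 of 71 small RNA sites (32.4%, 22.7 to 43.9) were shared. The background over all writer sites was 18.7%, 852 of 4561. The lists were of unequal size in coding sequence, with 863 IGF2BP3 sites in 703 genes and 297 writer sites in 253 genes, so that nearly equal counts of shared sites made unequal shares.

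Most of the sites held by IGF2BP3 alone had no writer cluster at all. In coding sequence 97 such sites met a writer cluster that was no site and 697 (80.8% of all 863 sites) met none, in 3' UTRs the counts were 217 and 1139 (72.2% of 1578), and in small RNAs 9 and 122 (79.7% of 153). Over all classes 3005 of 4290 IGF2BP3 sites (70.0%) met no writer cluster, so the share in 3' UTRs lay near that of all sites. On the writer side, 205 coding sites (69.0%), 967 sites in 3' UTRs (76.1%) and 41 small RNA sites (57.7%) had no bio2 cluster. Over all classes 3530 of 4561 writer sites (77.4%) had none.

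**Figure D1:**
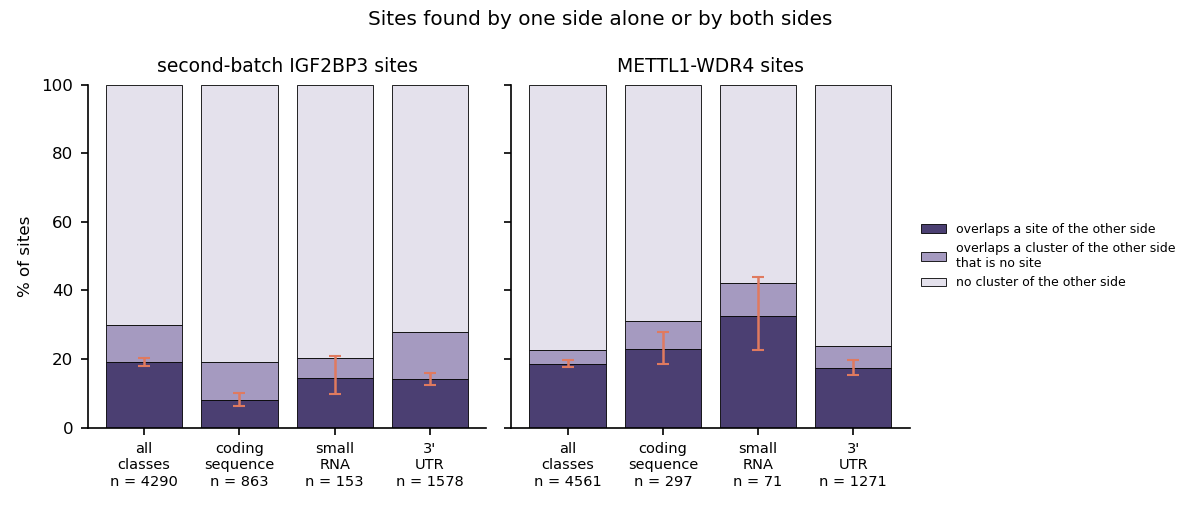
Sites of each side by class, as a share of the sites (%, y axis), split into those overlapping a site of the other side, those overlapping only a cluster that was no site, and those with no cluster of the other side. Error bars are 95% Wilson intervals of the shared part, which is lowest in coding sequence for IGF2BP3 (8.0%) and highest in small RNAs for METTL1-WDR4 (32.4%).

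The ranges of the 2 writer proteins overlapped at IGF2BP3 coding sites. Of the 863 coding sites, the METTL1 libraries had a cluster at 58 and 76 and the WDR4 libraries at 85 and 71. At least 1 METTL1 library covered 11.7% of them, at least 1 WDR4 library 13.2%, and all 4 libraries 2.67%, which is 23 sites. In 3' UTRs the METTL1 libraries covered 162 and 188 of 1578 sites and the WDR4 libraries 287 and 232. The ranges of the proteins did not overlap there, with 246 sites (15.6%) touched by METTL1 and 369 (23.4%) by WDR4, and the WDR4 libraries also held more clusters in all. Small RNA sites were covered 17 and 23 times of 153 by METTL1 and 22 and 17 times by WDR4.

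Writer sites seen in more writer libraries were more often shared. In coding sequence, 18.5% of 189 sites in 2 libraries, 18.9% of 53 sites in 3 and 41.8% of 55 sites in all 4 overlapped an IGF2BP3 site. In 3' UTRs the shares were 13.5% of 654, 18.1% of 304 and 24.9% of 313, and in small RNAs 18.2% of 33, 36.4% of 22 and 56.2% of 16. Over all classes the shares were 9.80% of 2530, 19.9% of 981 and 39.0% of 1050, so the rise was not particular to these classes. Sites in more libraries were merged from more clusters, and the part of this in the order was not tested.

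The size of the overlap depended on how a writer site was defined. Sites required in at least 3 of the 4 writer libraries gave 3.82% of IGF2BP3 coding sites and 8.49% of its sites in 3' UTRs, and sites of any 1 library gave 19.2% and 27.8%. Among small RNA sites that were single copy, meaning a central 20 nt with 1 occurrence in hg38, 6.67% of IGF2BP3 sites and 16.1% of writer sites were shared.

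The classes took different shares of the clusters of each library. Coding sequence held 21.0% and 19.8% of clusters in the bio2 libraries, 7.36% and 7.81% in METTL1 and 5.56% and 3.67% in WDR4. The mean was 3.34 times as high in the bio2 libraries, higher by 14.3 percentage points with no overlap between sides (two-sided exact permutation test over 15 arrangements of the 6 libraries, p = 0.0667). This is the smallest p the design allows, so that no comparison of these 6 libraries could reach 0.05.

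Small RNAs held 3.30% and 3.51% of bio2 clusters, against 1.18% and 1.16% for METTL1 and 0.707% and 0.674% for WDR4. Introns stood the other way, at 15.6% and 15.5% against 38.9%, 39.5%, 42.8% and 44.1%, and intergenic sequence at 10.6% and 11.1% against 16.8%, 17.2%, 19.4% and 22.3%. None of these ranges overlapped (exact permutation p = 0.0667 each).

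For 3' UTRs the direction depended on the denominator. Their share of all clusters was 35.5% and 35.4% in bio2 and 19.95%, 19.5%, 19.5% and 17.3% in METTL1 and WDR4, 16.4 points higher in bio2 (exact permutation p = 0.0667). Among clusters in 5' UTR, coding sequence and 3' UTR only, it was 7.43 points lower in bio2 (-7.43, exact permutation p = 0.133), while the coding share stayed higher, by 14.1 points (exact permutation p = 0.0667).

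**Figure D2:**
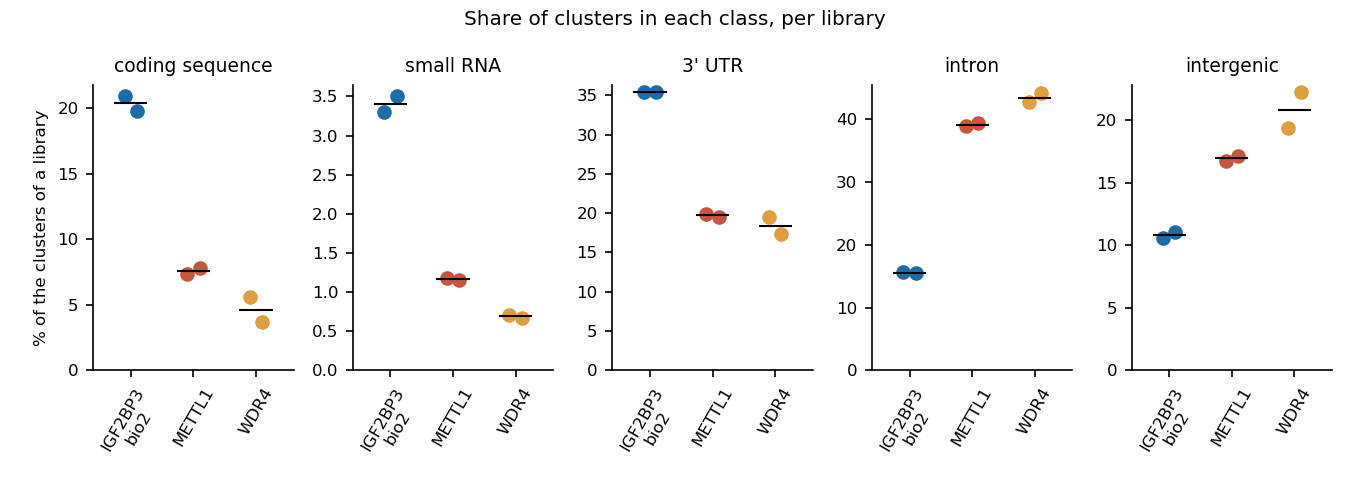
Share of clusters in each class (%, y axis) for each library, in panels with separate scales, with points for single libraries and lines for the mean of a protein. The bio2 libraries sit at 19.8% to 21.0% in coding sequence, above the 3.67% to 7.81% of the METTL1 and WDR4 libraries, and below them in introns.

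The other IGF2BP libraries of the series show how far the coding and small RNA shares belonged to bio2. The other 6 IGF2BP libraries, 2 each of IGF2BP1, IGF2BP2 and first-batch IGF2BP3, held 7.40% to 13.5% of clusters in coding sequence, 9.63 points below bio2 (two-sided exact permutation test over 28 arrangements, p = 0.0357, the smallest possible, and 0.0625 after Benjamini-Hochberg adjustment). Their small RNA share was 0.186% to 0.895%, 3.04 points below, and their 3' UTR share 39.4% to 42.9%, 6.35 points above bio2 (both p = 0.0357, exact permutation, and 0.0625 after adjustment). Leaving out either bio2 library raised these p-values to 0.143, the smallest then possible. The libraries came in pairs of the same protein and batch, and the test took each library as a unit. Its p-values, here and for snoRNAs below, therefore do not measure differences between proteins or batches. This comparison was added to the planned ones.

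The shares of sites that met a writer site also varied between the IGF2BP pairs. First-batch IGF2BP3 shared 136 of 685 coding sites (19.9%) and 653 of 2150 sites in 3' UTRs (30.4%), IGF2BP1 15.4% and 20.4%, and IGF2BP2 53.0% and 50.5%, against 8.0% and 14.1% for bio2. Over all classes the shares were 29.8% of 4865 sites for first-batch IGF2BP3, 21.8% of 10603 for IGF2BP1 and 55.8% of 3174 for IGF2BP2. For bio2 it was 19.0% of 4290, so the pairs differed over all sites as well. All 4 readers were set against the same writer sites, but their own lists were of unequal size. Per library, 15.4% and 15.9% of bio2 clusters lay at a writer site, against 16.9% to 44.3% in the other 6 (exact permutation p = 0.143).

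In coding sequence and 3' UTRs, most sites that bio2 IGF2BP3 shared with METTL1-WDR4 also held a first-batch IGF2BP3 cluster, which was less so in small RNAs. A first-batch IGF2BP3 cluster lay on 67 of 69 shared coding sites (97.1%) and on 213 of 222 shared sites in 3' UTRs (95.9%), and on 298 of 697 coding sites (42.8%) and 614 of 1139 sites in 3' UTRs (53.9%) with no writer cluster. In small RNAs it lay on 8 of 22 shared sites and on 0 of the 122 sites with no writer cluster. Over all classes the counts were 676 of 816 (82.8%) and 1154 of 3005 (38.4%).

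The genes with the most IGF2BP3 coding sites were APOB and FN1, which both encode secreted proteins. APOB, the protein of very low density lipoprotein, had 35 IGF2BP3 coding sites, the most of any gene, of which 8 were shared and 27 were not. The bio2 libraries held 44 and 42 clusters in its coding sequence, METTL1 7 and 12, and WDR4 15 and 8. Of the 10 writer sites in APOB, 8 were shared. The coding sequence of APOB is long, 13689 nt in the transcript used, and counts were not divided by length.

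FN1, encoding fibronectin, had 9 IGF2BP3 coding sites, 1 of them shared, from 15 and 10 bio2 clusters against 1 and 4 in METTL1 and 1 and 2 in WDR4. TET1, a DNA demethylating dioxygenase, had 4 sites from 4 clusters in each bio2 library and no writer cluster. MGA, a MAX-binding transcription factor, also had 4 sites, and its only writer clusters were 3 in one WDR4 library. NFATC3, a calcineurin-regulated transcription factor, had 5 sites, 1 of them shared.

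EEF2, the translocation factor of translation elongation, was among the genes with more than 1 shared coding site. It had 4 IGF2BP3 sites and 4 writer sites, 2 of each shared, from 6 and 6 bio2 clusters against 4, 3, 2 and 2. Both IGF2BP3 sites of ERF, an ETS transcriptional repressor, were shared, as were both of C14orf119. ALB, encoding albumin, had 2 IGF2BP3 sites of which 1 was shared.

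Of the genes with the most writer coding sites alone, some had no bio2 cluster and others had IGF2BP3 sites elsewhere. APOB had 2 such sites beside its 8 shared ones. TNRC18 had 4, with 3, 4, 4 and 5 writer clusters and none in bio2, and HOXD1, a homeobox transcription factor, had 3, with 2, 3, 4 and 3 writer clusters and none in bio2. FASN, fatty acid synthase, had 3 writer sites and 1 IGF2BP3 site, none shared, from 2 and 1 bio2 clusters, 7 and 8 METTL1 clusters and 3 and 0 WDR4 clusters. ASGR1, a subunit of the hepatic asialoglycoprotein receptor, had 2 writer sites and no bio2 cluster.

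In 3' UTRs, PEG10, a retrotransposon-derived imprinted gene, had 13 IGF2BP3 sites, 2 of them shared, with 14 and 17 bio2 clusters against 2 and 6 in METTL1 and 4 and 4 in WDR4. MAN1A1, a Golgi mannosidase, had 8 and LPP, a LIM-domain protein of cell contacts, 7, none shared. CDK6, a cell cycle kinase, had 6, with 1 shared, from 7 and 7 bio2 clusters against 0, 0, 1 and 1. MBNL3, a splicing regulator, had 7, also with 1 shared.

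IGF2, the fetal growth factor whose mRNA gave the IGF2BP family its name, stood apart from these genes. All 10 of its IGF2BP3 sites in the 3' UTR were shared, and 11 of its 24 writer sites were. The bio2 libraries held 13 and 13 clusters there, METTL1 24 and 26 and WDR4 27 and 24, so that every writer library held more clusters than either bio2 library. The 10 shared sites made up 10 of the 77 IGF2BP3 sites in 3' UTRs that were called in all 6 libraries.

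PLBD2, a lysosomal phospholipase B-like protein, had 8 IGF2BP3 sites and 13 writer sites. Of its IGF2BP3 sites 5 were shared, and 2 of these 5 were single copy. All 4 IGF2BP3 sites of MDM2, a ubiquitin ligase, were shared, among 8 writer sites, and 2 of the 4 were single copy.

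The genes with the most writer sites alone in 3' UTRs differed in how much of it was repeated sequence. IGF2 had 13 such sites, of which 12 were single copy, and PLBD2 had 9, of which 4 were. PLCXD1, in the pseudoautosomal region and so counted on both sex chromosomes, also had 9, and none was single copy. MAVS, the mitochondrial adaptor of antiviral signalling, had 7, of which 1 was single copy. ARID3A, a DNA-binding protein, had 8, of which 6 were single copy, with 10, 7, 6 and 7 writer clusters and 1 in each bio2 library. Over all writer sites in 3' UTRs with no bio2 cluster, 52.0% were single copy, against 85.9% of IGF2BP3 sites with no writer cluster and 74.8% of shared IGF2BP3 sites. Whether reads at repeated sequence came from the annotated gene cannot be told from the intervals.

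**Figure D3:**
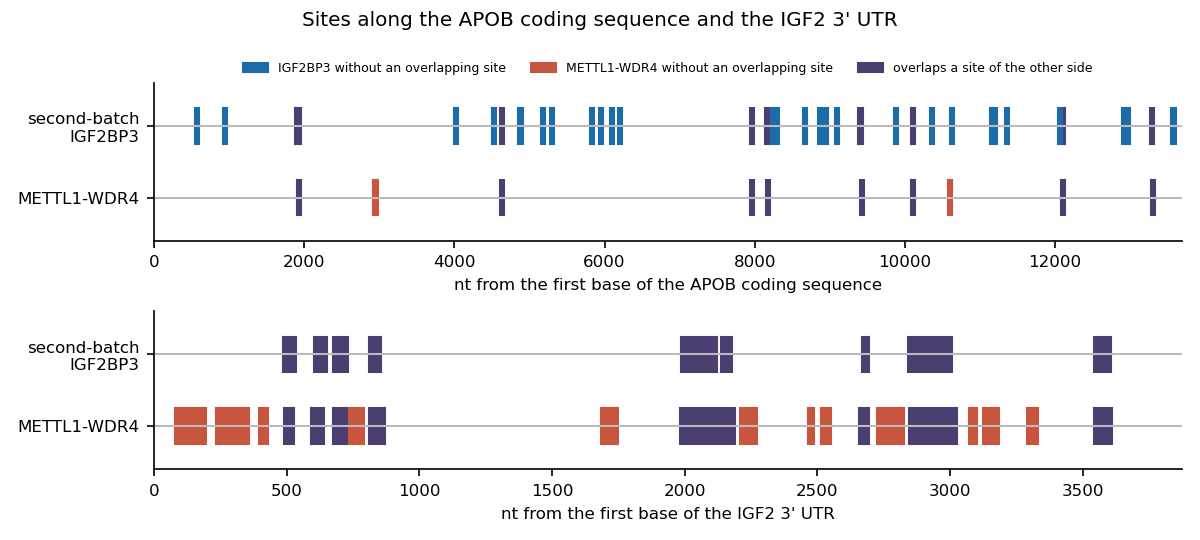
Sites of each side along the coding sequence or 3' UTR of single genes, with the distance from the first base of the region (nt) on the x axis, 1 row per side and 1 block per site (narrow sites widened to be seen). In APOB 8 of 35 IGF2BP3 sites and 8 of 10 METTL1-WDR4 sites met, and in IGF2 all 10 IGF2BP3 sites lay on METTL1-WDR4 sites.

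Of the 23 IGF2BP3 coding sites called in all 6 libraries, 6 lay in APOB and the others in 17 genes. These included ATF4, a stress-response transcription factor, CTNNB1, encoding beta-catenin, SCD, stearoyl-CoA desaturase, WNT5A, a secreted Wnt ligand, and DDOST, KDELR1, OS9 and SSR3, which work in the endoplasmic reticulum and its traffic. Of the 23 sites, 18 were single copy.

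Genes overlapped more than sites did. A gene was counted as shared whether or not its sites met, so the higher share follows in part from the wider unit. Of the 702 protein-coding genes with an IGF2BP3 coding site, 88 (12.5%) also had a writer coding site, which is 34.8% of the 253 writer genes. In 3' UTRs 327 genes were shared, 28.4% of the 1153 IGF2BP3 genes and 38.6% of the 847 writer genes. Of the 697 IGF2BP3 coding sites with no writer cluster, 144 (20.7%) were in a gene with a writer site elsewhere in its coding sequence or 3' UTR, and of the 1139 such sites in 3' UTRs 291 (25.5%) were. On the writer side the counts were 60 of 205 (29.3%) and 344 of 967 (35.6%).

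The gene lists were read against these shares. The liver markers ALB, AFP, APOA1, APOB, TTR, SERPINA1 and FGB held 39 IGF2BP3 coding sites, 9 shared, and 11 writer coding sites. Of these, 35 IGF2BP3 sites and 10 writer sites lay in APOB. In 3' UTRs both sides had 7 sites in these genes, 5 of them shared. Genes with EIF and EEF symbols, mostly translation factors, held 12 IGF2BP3 coding sites, 2 shared, and 6 writer ones, and in 3' UTRs 18 sites, 4 shared, and 15 writer ones. Zinc finger genes with ZNF symbols held 20 coding sites, 1 shared, against 5, and 33 sites in 3' UTRs, 1 shared, against 37.

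Ribosomal protein genes had no shared site in 3' UTRs, with 3 IGF2BP3 sites in 3 genes and 21 writer sites in 8 genes, of which 3 writer sites were single copy. In coding sequence they held 7 IGF2BP3 sites and 2 writer sites, 1 of each shared. Histone genes held 2 coding sites on each side and 5 sites in 3' UTRs on each side, none shared. Of 5 transcripts that the study used in reporter assays, BPNT2, a Golgi phosphatase, had 3 IGF2BP3 sites in its 3' UTR, 1 shared, with 3 and 3 bio2 clusters against 1 in each writer library. HUWE1, a ubiquitin ligase, had 2 IGF2BP3 coding sites, NDRG1 a writer site in its 3' UTR, ZDHHC9 one site of each side in different regions, and CYRIB none. The mRNAs of IGF2BP3, METTL1 and WDR4 themselves held no site of either side.

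In small RNAs the families differed in their share of the sites of each side, and several held sites of both. The IGF2BP3 sites were mainly on snoRNAs, many of which guide modification of ribosomal RNA. Of the 153, 72 were on box C/D snoRNAs, the family that includes the guides of ribose methylation, and 2 of these were shared. Not every member of the family is such a guide, and the 72 included sites on SNORD3 genes, SNORD118 and SNORD116. The bio2 libraries held 93 and 94 box C/D clusters, METTL1 5 and 3 and WDR4 4 and 1. Box H/ACA snoRNAs, the family that includes the guides of pseudouridylation, held 16 IGF2BP3 sites, none shared, from 23 and 27 bio2 clusters against 2, 6, 0 and 1.

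Together snoRNAs held 1.84% and 2.05% of bio2 clusters and 0.0326% to 0.121% of those of METTL1 and WDR4 (exact permutation p = 0.0667, and 0.2 after adjustment over 3 small RNA families, which were chosen after the data were seen). First-batch IGF2BP3 held 0 and 0 snoRNA clusters, and the other 6 IGF2BP libraries together 0% to 0.175%, below bio2 by 1.90 points (exact permutation p = 0.0357, and 0.0625 after adjustment). SNORD116, an imprinted cluster of box C/D snoRNAs, had 11 IGF2BP3 sites and no writer cluster at any of them. All 11 lay in the 5' part of the RNA. Their median scaled position was 0.187, from 0 at the first base to 1 at the last. Of all 72 box C/D sites, which include these 11, 43 lay in the 5' part. Several of the 11 were not single copy, as on SNORD116-15, whose centre occurred 6 times in the genome. They lay in one cluster of related genes, some at the same scaled position, and so cannot be read as 11 independent observations.

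Pseudogenes of ribosomal RNA, mostly 5S, held 15 IGF2BP3 sites and no writer site. The vault RNAs VTRNA1-1, VTRNA1-2 and VTRNA1-3, components of the vault particle, each had 1 IGF2BP3 site, of 99, 89 and 72 nt, from 3 and 4 bio2 clusters, and no cluster in any other library of the series. The family counts over all small RNAs rest on few clusters, and reads of nearly identical copies can be placed on more than one gene.

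Shared small RNA sites were mostly on abundant structured RNAs. All 5 IGF2BP3 sites on 5.8S ribosomal RNA genes, 3 of 4 on the RNAs of RNase P and RNase MRP, and 5 of 12 on small nuclear RNAs overlapped writer sites. The 5 small nuclear RNAs were all U5 genes or a U5 pseudogene (RNU5A-1, RNU5B-1, RNU5D-1, RNU5E-1 and RNU5D-2P), whereas RNU11, RNU12 and RNU7-1 had IGF2BP3 sites alone and RNU4-1 had a site of each side at different places. Y RNAs had 2 shared of 5 IGF2BP3 sites and 7SK RNAs 2 of 4.

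**Figure D4:**
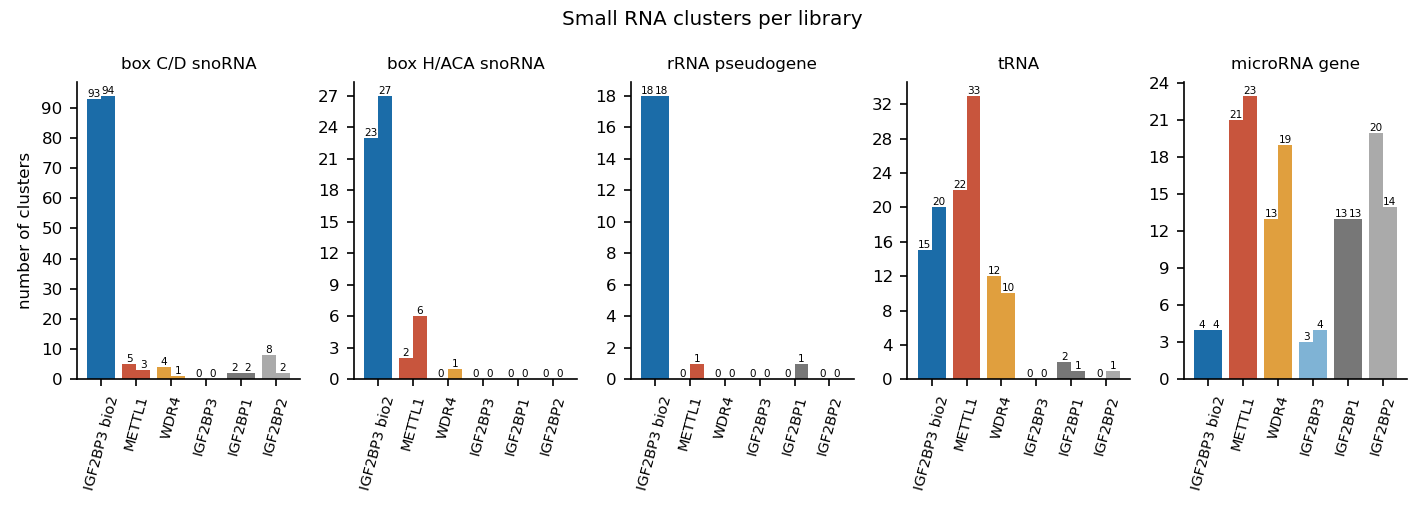
Clusters per library (y axis, count) in families of small RNA, in panels with separate scales, with 1 bar per library for all 12 libraries of the series. Box C/D snoRNAs had 93 and 94 clusters in the bio2 libraries and 1 to 5 in the METTL1 and WDR4 libraries, while microRNA genes had 4 and 4 against 13 to 23.

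Transfer RNAs, the best known substrates of METTL1-WDR4, held sites of both sides, mostly placed on different annotated genes. There were 18 writer sites and 9 IGF2BP3 sites on tRNA genes, and 1 was shared, on the leucine tRNA gene TRL-TAA1-1 at chr6:144216593-144216612. The libraries held 15 and 20 tRNA clusters in bio2, 22 and 33 in METTL1 and 12 and 10 in WDR4, or 0.232% and 0.333% of clusters against 0.333%, 0.382%, 0.123% and 0.109% (exact permutation p = 0.667), so that the ranges overlapped. First-batch IGF2BP3 held none. Of the 18 writer sites 15 had no bio2 cluster, and of the 9 IGF2BP3 sites 8 had no writer cluster. Single copy were 9 of the writer sites and 3 of the IGF2BP3 sites. For the others the tRNA gene that gave the reads cannot be told.

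Most writer sites began beyond the middle of the tRNA gene. Of the 18, 14 did so and 2 ended before the middle. The 8 that reached the last 3 nt of the gene all ran past its annotated end, as at TRY-GTA2-1, from nt 72 to nt 105 of 89 nt. Of the 9 IGF2BP3 sites, 4 reached the last 3 nt, some of them running past the end. Of the same 9, 2 began beyond the middle and 3 ended before it. TRR-TCT1-1, printed above, is one of the latter and begins at nt 1. On 5 leucine tRNA genes the writer site was the same 22 nt, from nt 45 to nt 66 of the gene of 82 nt, from the variable arm into the T arm, and 1 of the 5 sites was single copy, so the gene that gave the reads cannot be told for the others.

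The sequence AAGGT or GAGGT, in which the m7G of tRNA is found, was in the gene at 5 of the 18 writer sites (27.8%), which lay on 17 genes, at 4 of the 9 IGF2BP3 sites (44.4%), which lay on 9 genes, and in 155 of 379 tRNA genes with a known strand (40.9%). It lay inside 2 writer sites and 1 IGF2BP3 site. A match is a description of letters and not a measured m7G.

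MicroRNA genes held more writer than IGF2BP3 sites. METTL1-WDR4 had 12 sites on them, of which 11 had no bio2 cluster, and the libraries held 21 and 23 clusters in METTL1 and 13 and 19 in WDR4 against 4 and 4 in bio2. As shares these were 0.317%, 0.266%, 0.133% and 0.206% against 0.0619% and 0.0666% (exact permutation p = 0.133), with no overlap. IGF2BP1 held 13 and 13 such clusters (0.0896% and 0.0828%), first-batch IGF2BP3 3 and 4 (0.0464% and 0.0586%), and IGF2BP2 20 and 14 (0.437% and 0.187%). The first of the IGF2BP2 libraries was thus above every writer library.

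Of the 12 writer sites, 9 lay over a mature microRNA in RefSeq and 6 covered it whole, and the 9 seeds were all different. The MIR155 site, chr21:25573983-25574005, covered 23 of the 24 nt of miR-155-5p and was called in all 4 writer libraries. In MIR423, the host of both products printed above, one site was exactly miR-423-5p, chr17:30117095-30117117, and the other covered 22 of the 23 nt of miR-423-3p, each in 2 libraries, both of METTL1. The MIR744 site, in 3 libraries, covered 19 of the 22 nt of miR-744-5p. Other writer sites were wider than the product, as in MIR3684, 58 nt over 21 nt, and MIR1281, 47 nt over 17 nt. IGF2BP3 sites lay over miR-7704 and miR-1248, each with no writer cluster.

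The CAU element was more frequent at bio2 clusters in mRNA than at writer clusters. Windows of 41 nt were centred on each cluster, so that cluster width did not set the share, and CAT followed by A, C or T was sought on the strand of the cluster. In coding sequence 75.1% and 76.1% of bio2 windows held it, against 34.9% to 40.5% in the 4 writer libraries, which lay 37.8 points lower on average. In 3' UTRs it was 74.3% and 75.8% against 35.4% to 39.4%, 38.3 points lower (both p = 0.0667, exact permutation). Of all 41 nt windows of the same transcripts 35.2% in coding sequence and 38.0% in 3' UTRs held it, so the writer libraries were near that share.

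Shared sites held the element less often than IGF2BP3 sites with no writer cluster and more often than writer sites with no bio2 cluster. In coding sequence it was in 78.9% of windows at the first (75.7 to 81.8), 68.1% at shared IGF2BP3 sites (56.4 to 77.9), an interval that overlaps the first, and 28.3% at the writer sites (22.6 to 34.8). In 3' UTRs the shares were 80.2% (77.8 to 82.5), 66.7% (60.2 to 72.5) and 29.7% (26.9 to 32.6). At single-copy sites they were 79.8%, 67.9% and 28.8% in coding sequence and 80.3%, 68.1% and 35.4% in 3' UTRs. Widths differed as well. Shared sites had a median of 42 nt in both regions, IGF2BP3 sites with no writer cluster 34 nt in coding sequence and 35 nt in 3' UTRs, and writer sites with no bio2 cluster 38 nt and 51 nt. These are counts of sites, with no test over libraries.

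**Figure D5:**
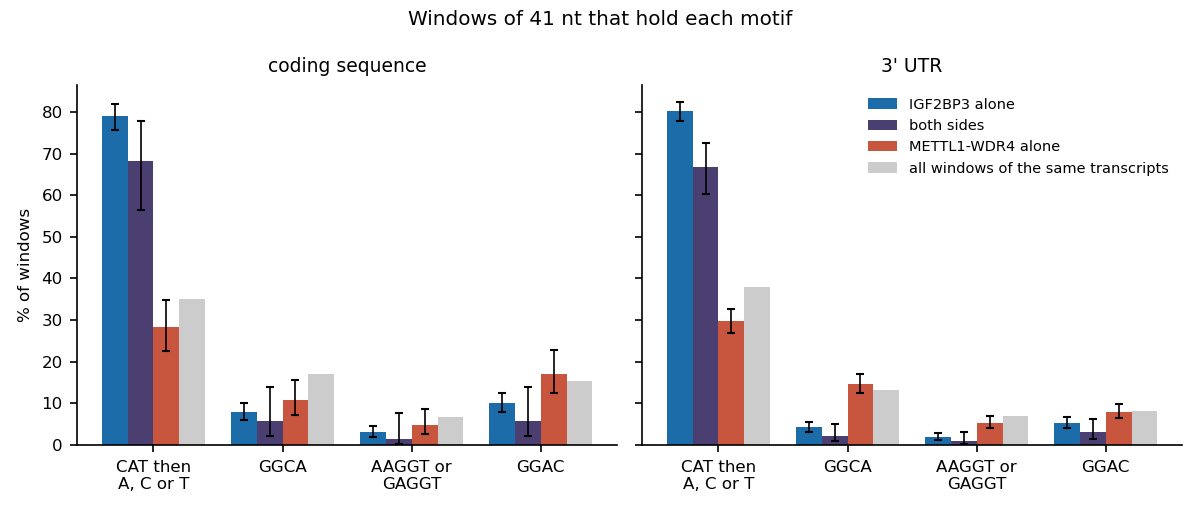
Share of 41 nt windows (%, y axis) that hold each of the motifs named on the x axis, for sites of IGF2BP3 with no METTL1-WDR4 cluster, sites of both, sites of METTL1-WDR4 with no IGF2BP3 cluster, and all windows of the same transcripts. Error bars are 95% Wilson intervals for counting error, and the CAT element stands at 78.9%, 68.1%, 28.3% and 35.2% in coding sequence.

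Motifs with G went the other way. GGCA, known from IGF2BP3 binding studies, was in 7.76% and 7.90% of bio2 coding windows against 11.3% to 13.6% in the writer libraries, and in 4.54% and 4.18% against 10.5% to 13.3% in 3' UTRs. AAGGT or GAGGT was in 2.51% and 2.61% against 3.85% to 5.71% of coding windows, and in 1.35% and 1.27% against 4.39% to 5.38% in 3' UTRs. In longer windows the coding difference for AAGGT or GAGGT was only -0.629 points (p = 0.667, exact permutation). GGAC, within the usual context of m6A, was in 9.98% and 9.75% against 13.3% to 19.5% of coding windows and 5.02% and 4.98% against 6.76% to 8.96% in 3' UTRs. None of these ranges overlapped in the 41 nt windows (exact permutation p = 0.0667 each), while for GGAC the p was 0.133 in coding sequence and 0.267 in 3' UTRs in longer windows (exact permutation).

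The shares over all windows of the same transcripts were 17.1% and 13.2% for GGCA, 6.76% and 6.87% for AAGGT or GAGGT and 15.4% and 8.23% for GGAC, in coding sequence and 3' UTRs. G itself made up 12.2% and 12.1% of bases in bio2 coding windows against 19.4% to 23.6% in the writer libraries, and 8.92% and 8.68% against 16.3% to 19.7% in 3' UTRs. All windows of these transcripts held 24.9% and 20.9% G. RNase T1 cuts after G, and in the bio2 libraries the base just before a cluster was G in 89.0% and 88.7% of clusters, against 74.5% to 86.2% in the writer libraries. The part of the digestion in the motif shares was not tested.

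Position along the transcript was similar, with overlapping or nearly adjoining ranges. The median scaled position in coding sequence, from 0 at the start codon to 1 at the stop codon, was 0.529 and 0.529 for bio2 and 0.492 to 0.548 for the writers (exact permutation p = 0.467), so the sides overlapped. In 3' UTRs it was 0.404 and 0.403 against 0.411 to 0.435 (exact permutation p = 0.133). Among sites, 16.3% of writer coding sites with no bio2 cluster lay in the first of 10 equal parts of the coding sequence, against 5.56% of IGF2BP3 sites with no writer cluster and 4.48% of shared sites. Median cluster width in 3' UTRs was 34 and 34 nt in bio2 and 38 to 41 nt in the writer libraries, in small RNAs 36 and 36 against 28 to 32 nt (both p = 0.0667, exact permutation), and in coding sequence 33 and 32 against 31 to 33 nt.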

How the data were processed

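Per the study's methods, the authors collapsed and trimmed reads with the FASTX toolkit, aligned them by Bowtie, and used PARalyzer for cluster calls in each library; the labels name hg38, and versions were not given in the sources used here. The deposited intervals are of another unit than a count: each line is 1 cluster, with no score or reads. Starts fitted hg38 as counted from 1, since 74.5% to 94.7% of clusters followed a G.

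Midpoints were classed on their own strand with GENCODE 44 (small RNA, then coding sequence, 3' UTR and the rest). Library shares were tested with exact two-sided permutation and Benjamini-Hochberg adjustment within a family. Overlaps were counted with no test. The members and gene lists were chosen with earlier results of these data known. Named genes were the 5 with the most sites of each class and category, and named sites the 3 in the most libraries with the steadiest ends, from which the printed ones were taken; other genes and sites named, those in all 6 libraries and in the small RNA families, were chosen after their values were seen. Single copy means that the central 20 nt occurred once in hg38. Alternatives were other library requirements, overlaps, windows, classes and denominators. The code passed 6 of 6 checks on simulated data. Python 3.11.15, pandas 2.3.3, numpy 2.4.6, scipy 1.17.1, pysam 0.24.0 and matplotlib 3.10.9 were used. Some of the genes and sites named by the rule are not reported here.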

Additional observations from a re-analysis of the deposited data

How the results depend on the processing

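Of the values under alternative settings, 362 were labelled the same, 33 moved, 8 lost their call and 3 turned in direction. Tests of bio2 against the writer libraries could make no call at any setting, because their smallest possible p was above the threshold. Overlap shares were counted with no test and had no call to keep or lose. The count of 362 is therefore no measure of how firm the results were. Permutation within replicate numbers (replicate block) left the coding difference at 14.3 points and the small RNA difference at 2.48 points, and gave 24 of 29 results their smallest p of 0.111 over 9 arrangements, so no call could be made or lost. The numbers were not taken as pairs, since the correlations of replicate differences over 8141 sites were -0.0201, 0.0117 and 0.0341.

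The direction turned for the 3' UTR share among mRNA clusters only (-7.43 points, p = 0.133 by exact permutation), for the position in 3' UTRs at single-copy centres (0.00636, p = 0.6 by exact permutation) and for the tRNA share without bio2 replicate 2, its values running from -0.00412 to 0.0964 points when libraries were left out.

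Against the other 6 IGF2BP libraries, leaving out 1 library gave 8.95 to 10.2 points for coding sequence, -6.83 to -6.12 for 3' UTRs, 2.93 to 3.15 for small RNA and 1.80 to 2.00 for snoRNA. Their unadjusted p rose above 0.05 only without a bio2 library, where the exact permutation test cannot go below 0.143, and with all libraries the adjusted p was already 0.0625 for all 4.

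The overlap moved with the definition of a writer site. With 3 or more libraries, the shared percentages of IGF2BP3 sites were 3.82 (coding sequence) and 8.49 (3' UTR), and those of writer sites 30.6 and 21.6, with 44.7 in small RNA. With any 1 library they were 19.2 and 27.8, and 10.3, 10.3 and 18.3. With both METTL1 libraries only they were 3.82 and 6.65 for IGF2BP3. With both WDR4 libraries only they were 4.87 and 9.70 for IGF2BP3, and 38.2, 21.9 and 48.4 for writers. With 1 library of each protein they were 5.79 and 11.2 for IGF2BP3. Leaving out 1 writer library gave 5.33 to 6.49 and 9.70 to 12.2 for IGF2BP3, both lowest without WDR4 replicate 1, and 19.6 to 31.2 for writer coding sites, lowest without WDR4 replicate 2 and highest without METTL1 replicate 2.

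Wide clusters gave 3.90 for IGF2BP3 coding sites, and 14.8, 12.9 and 59.1 for writer sites in coding sequence, 3' UTR and small RNA. Single-copy sites gave 6.67 for IGF2BP3 in small RNA, and 16.1 and 23.2 for writers in small RNA and 3' UTR. Where the definition changes which libraries must hold a site, the counts change by construction, and otherwise the cause was not tested. Longer windows brought the coding difference for AAGGT or GAGGT to -0.629 points. Files without read counts give no depth for a site, and repeated copies limit what can be said of single small RNA genes.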
